A study of Mus musculus with 10 samples.

Results

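Hearts of wild-type embryos whose mothers were kept at 14% oxygen (wild-hypoxia, 3 samples) were set directly against hearts of embryos with a mutant Nkx2-5 allele that had normal oxygen (mutant-normoxia, 3 samples). All hearts were whole mouse hearts at E12.5. The mutant embryos carried the R52G knock-in allele of Nkx2-5 in heterozygous form, in all their cells. By the paper's account, wild-type and mutant embryos alike came from wild-type mothers and heterozygous mutant fathers of a 129/Sv background. The wild-hypoxia embryos had hypoxia from gestation day 10, 2 days before the hearts were taken. Each sample combined 2 to 3 hearts of embryos not sorted by sex in the labels, and 6 of the 10 samples analysed here fall in these groups. The remaining 4 were wild-type hearts without hypoxia (wild-normoxia); they did not enter the comparison, and their values are given beside a gene only as a reference level.

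The question behind the comparison is how far an environmental and a genetic insult to the same organ leave the heart with different transcripts. Nkx2-5, a homeodomain factor of the NK2 class, switches on genes of the heart muscle and the conduction system, and loss of one functional copy causes septal and conduction defects in humans and mice. Low oxygen acts on gene expression mainly through HIF, a transcription factor whose alpha subunit is marked for destruction by prolyl hydroxylases when oxygen is plentiful, and whose targets include glucose transporters, glycolytic enzymes and Vegfa. In the embryonic heart both pathways meet in cells that divide, contract and form trabeculae at the same time.

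The deposited table gives, for each gene, 1 estimated count of fragments per group with a variance from the authors' model, and single samples have no values in it. A fragment is here a single read assigned to a gene. The difference of each gene is a log2 ratio of the group values, wild-hypoxia over mutant-normoxia, after adding 1 fragment to each, so that negative values mean higher in mutant-normoxia. Its error is a model standard error (SE), computed from the deposited variances divided by 3 samples. This SE is not a spread between samples, so no p-value was computed, and a gene is described as called where its ratio exceeds 2-fold. Because bulk RNA was measured, fewer cells of a type and less RNA per cell cannot be told apart.

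Of the 49662 genes in the table, 13516 had a successful estimate in both groups and at least 50 fragments in one, and 12887 of these have a symbol. Another 36114 genes were estimated but lay under 50 fragments in both groups, and 32 had no estimate in one or both. Among the latter, H19, mt-Co1, Hbb-y, Hba-a1 and Hba-a2 had too many reads to be estimated in both groups, and mt-Nd1, mt-Nd4, mt-Cytb and Igf2 in mutant-normoxia alone. The estimated counts summed to 18.47 M fragments over the compared genes for wild-hypoxia and to 18.58 M for mutant-normoxia.

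The hearts carried the transcripts of heart muscle at close levels. Tnnt2, cardiac troponin T, had 57840 fragments in wild-hypoxia and 57047 in mutant-normoxia (log2 ratio 0.02, SE 0.28). Nppa, the atrial natriuretic peptide made in atria and trabeculae, had 28688 and 25299 (0.18, SE 0.21). Nkx2-5 itself (chr17:26975609-26978510 in NCBIM37, 2 exons) had 4131 fragments in wild-hypoxia and 4106 in mutant-normoxia, beside 3689 in wild-normoxia (log2 ratio 0.01, SE 0.15). The count takes in the transcripts of the normal and of the R52G allele alike, so it does not check the genotype.

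Across all compared genes the median log2 ratio was -0.01, with quartiles of -0.10 and 0.07 and a range from -3.30 to 2.48. For the 11844 genes over 100 fragments in both groups the deposited standard deviation was, at the median, 14.9% of the count, and the central spread of all ratios was 0.59 model SE. The ratio was above 1 in 45.7% of genes and below 1 in 54.3%. In all, 72 genes were over 2-fold, 0.533% of those compared. Of these, 62 were higher in mutant-normoxia (0.459%) and 10 were higher in wild-hypoxia (0.0740%). Counted by a distance of more than 3 model SE instead, 71 genes were higher in mutant-normoxia (0.525%) and 12 in wild-hypoxia (0.0888%). Both conditions held for 39 genes higher in mutant-normoxia (0.289%) and 6 higher in wild-hypoxia (0.0444%). Whether a deposited variance is per sample or of the group mean is not stated, and each was divided by 3 here; used whole, they left 14 genes over 3 model SE, 11 higher in mutant-normoxia and 3 in wild-hypoxia.

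The called genes were scarce transcripts. Among the 1531 genes with a mean of up to 100 fragments 52 were called, and among the 1562 between 100 and 200 fragments 14 were. Of the 5721 genes between 200 and 1000 fragments 5 were called, and of the 4702 above 1000 fragments 1, Tnnt3. None of the 1000 most counted genes was called; their ratios ran from -0.99 for Xist to 0.46 for Hbb-b1. A gene at such low levels passes the minimum of 50 fragments through the group in which it is high, so the number of called genes follows the minimum that is set. Of the 72 called genes, 27 lay under 3 model SE, 14 had a model SE over 1 and 14 have no symbol. Just short of the threshold lay Atcay (50.1 and 101 fragments), Xist (3016 and 6001), Sycp1 (28.5 and 57.5) and Mapk8ip2 (25.7 and 51.9); just past it were Nsg2 (47.7 and 96.6) and Npas4 (29.6 and 61.0), all higher in mutant-normoxia.

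**Figure D1:**
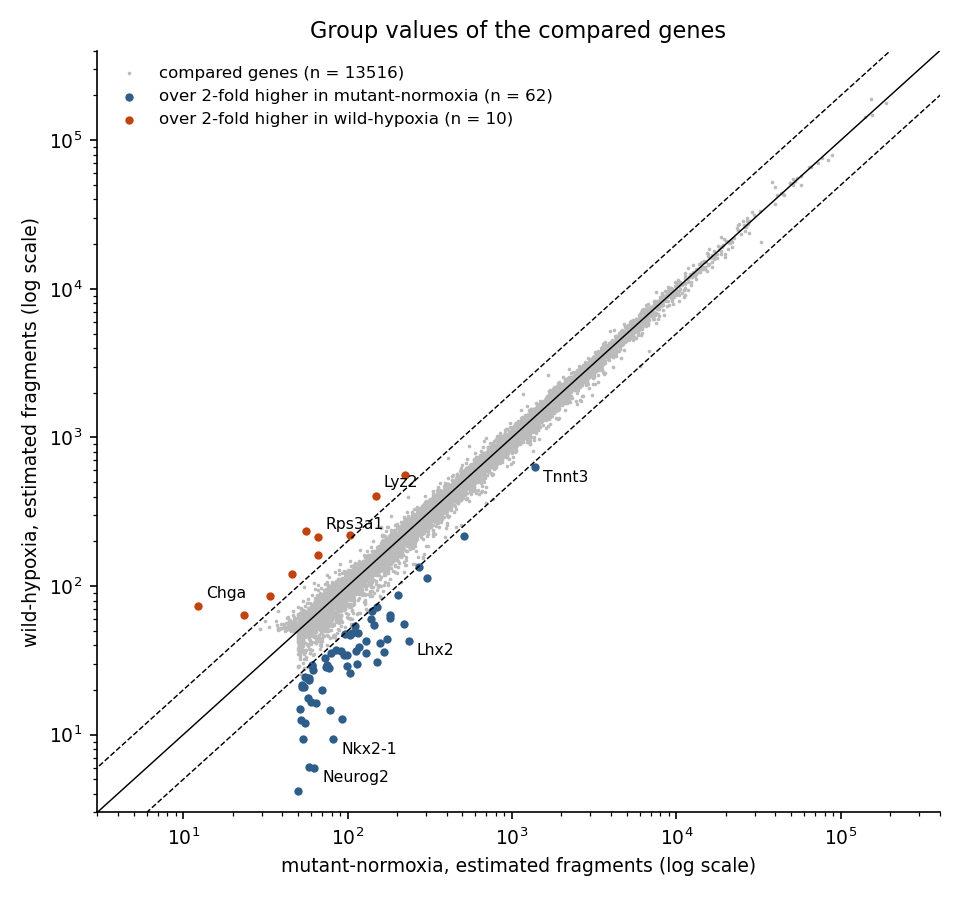
Estimated fragments of the 13516 compared genes in mutant-normoxia (horizontal) and wild-hypoxia (vertical), both on log scales; the solid line marks equal values and the dashed lines 2-fold. The 62 genes higher in mutant-normoxia and the 10 higher in wild-hypoxia lie mostly at the low end, and the cloud narrows along the diagonal as counts grow.

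Transcription factors of the embryonic brain and neural tube were among the named genes furthest toward mutant-normoxia. Neurog2 (chr3:127336054-127338549), a basic helix-loop-helix factor that commits progenitors to the neuronal fate, had 5.99 fragments in wild-hypoxia and 62.5 in mutant-normoxia, beside 21.5 in wild-normoxia. Its log2 ratio was -3.18 (SE 0.48). Lhx2 (chr2:38194801-38225253), a LIM-homeodomain factor of the forebrain and eye, had 42.9, 235 and 102 fragments in wild-hypoxia, mutant-normoxia and wild-normoxia (log2 ratio -2.43, SE 0.33). Pax6 (chr2:105509053-105543317), the paired-box factor of eye and neural tube, had 14.6, 77.8 and 19.1 (-2.34, SE 0.50). For Lhx2 and Neurog2 the reference level lay between the groups compared, and for Pax6 it lay near the wild-hypoxia value.

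Of the 45 listed neuronal transcription factors, 44 are in the table and 20 passed the minimum. Of these 20, 10 were over 2-fold higher in mutant-normoxia, 0 were over 2-fold higher in wild-hypoxia, and the median log2 ratio was -1.03 beside -0.01 over all compared genes. The 24 under the minimum were higher in mutant-normoxia in 23 cases, all on fewer than 50 fragments. The POU factors Pou3f2 and Pou3f3, which drive neuronal differentiation, had log2 ratios of -2.41 (SE 0.44) and -2.18 (SE 0.35). The zinc finger factors Zic1 and Zic2 of the dorsal neural tube were at -1.97 (SE 0.40) and -2.11 (SE 0.51). Sox2, which maintains neural progenitors and also patterns the foregut, had 41.6 and 158 fragments (-1.90, SE 0.36). Lhx9, another LIM-homeodomain factor, was also called, at -1.43 (SE 0.37).

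The list did not move as a block. Several of its better counted members had close values in both groups, and Sox3 lay toward wild-hypoxia. Prox1, which is also expressed in heart muscle and lymphatic endothelium, had 1994 fragments in wild-hypoxia and 1983 in mutant-normoxia (log2 ratio 0.01, SE 0.15). Ebf1 had 602 and 567 (0.09, SE 0.17), Irx1 had 472 and 415 (0.18, SE 0.18) and Sox3 had 212 and 171 (0.31, SE 0.23). With at least 200 fragments asked of one group the median of the list was 0.01, and with a mean of at least 50 it was -0.49. Lhx2 and Zic1 also passed at 200 fragments, through mutant-normoxia, and stayed over 2-fold at -2.43 and -1.97. The summed fragments of the 44 members were 4445 in wild-hypoxia, 5666 in mutant-normoxia and 5325 in wild-normoxia, with no member at 0 in any group.

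Forebrain regulators outside that list were also called; they are named here after their values were seen, except Scrt2, which the naming rule chose. Emx2, a homeobox factor of the cerebral cortex, had 29.0 fragments in wild-hypoxia, 99.0 in mutant-normoxia and 33.5 in wild-normoxia (log2 ratio -1.73, SE 0.40). Otx1, of forebrain and midbrain, had 20.0 and 69.9 (-1.76, SE 0.46), with 16.8 in wild-normoxia. For both genes wild-hypoxia and wild-normoxia lay close together and mutant-normoxia stood above both. Scrt2, a zinc finger factor of newborn neurons, had the other arrangement, with 16.7 fragments in wild-hypoxia, 59.9 in mutant-normoxia and 62.9 in wild-normoxia (-1.78, SE 0.43).

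C130071C03Rik (chr13:83861160-83880913), a long noncoding transcript, had 12.8 fragments in wild-hypoxia, 92.5 in mutant-normoxia and 53.9 in wild-normoxia (log2 ratio -2.76, SE 0.43). It is the host of Mir9-2: in GRCm38.p6 the hairpin lies inside the transcript. miR-9 is a brain-enriched microRNA that acts in neural progenitors. The mature sequences from RefSeq are shown because they are the product this host can yield, with the seed (bases 2 to 8) in capitals.
miR-9-5p: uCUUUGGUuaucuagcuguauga
miR-9-3p: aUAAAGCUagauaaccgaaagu
The separate entry for Mir9-2 is at 0 in all 3 groups. Libraries of poly-adenylated RNA do not measure mature microRNAs, so the values concern the host transcript only.

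Genes of neuronal structure leaned the same way with smaller ratios. Of 34 listed genes 27 passed the minimum. A ratio below 1 was found in 26 of these 27, beside 54.3% of all compared genes. Over 2-fold higher in mutant-normoxia were 6 (22.2%, beside 0.459% of all compared genes), and the median log2 ratio was -0.53. Of these 6, Miat, Ina, Elavl3, Celf3 and Stmn3 passed the minimum through mutant-normoxia alone. With at least 200 fragments in one group the median of the list was -0.17. Miat, a long noncoding RNA of neurons and retina, had 30.9 fragments in wild-hypoxia, 150 in mutant-normoxia and 132 in wild-normoxia (-2.25, SE 0.35). Dcx, the microtubule protein doublecortin of migrating neurons, had 87.0, 202 and 150 (-1.21, SE 0.27). Celf3, an RNA-binding protein of neurons, had 28.4, 73.8 and 51.1 (-1.35, SE 0.41). Map2, a microtubule protein of dendrites, stayed under 2-fold at 215 and 393 fragments but lay 4.14 model SE from 0. Stathmin Stmn3 was called at -1.30 (SE 0.42), whereas Ina and Elavl3 were called with an SE of 1.24 and 0.91. Some better counted members, such as Gap43 (582 and 591 fragments), Ncam1 (2295 and 2469) and Uchl1 (1679 and 1803), had close values. Dpysl3 was the only compared member with a ratio above 1 (0.13, SE 0.18). The sums over the 34 members were 24383 fragments in wild-hypoxia, 24701 in mutant-normoxia and 25593 in wild-normoxia.

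Neural crest, glia and autonomic precursors give rise to the heart's own nerve supply. Of their 24 listed genes 12 passed the minimum, with 1 called in each direction and a median of 0.10. Sox10, the factor of migrating crest and glia, had 92.9 fragments in wild-hypoxia and 82.5 in mutant-normoxia (0.17, SE 0.30). Fabp7, the fatty acid binding protein of radial glia and Schwann cell precursors, was the gene called toward mutant-normoxia, at 36.4 and 112 fragments (-1.59, SE 0.35). Th and Dbh, enzymes that define sympathetic neurons, lay under the minimum at 20.6 and 19.2 fragments in wild-hypoxia and 21.7 and 28.6 in mutant-normoxia. Fez1, an axon growth protein outside the lists, was at -1.93 (SE 0.39). With 1 value per group in the table used here, whether 1 sample carried the brain transcripts was not examined, and the part of neighbouring tissue in these ratios was not tested.

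Genes of the foregut and lung bud formed the next group higher in mutant-normoxia. Nkx2-1 (chr12:57632922-57637895), an NK2-class factor like Nkx2-5 that marks lung, thyroid and ventral forebrain, had 9.32 fragments in wild-hypoxia, 81.6 in mutant-normoxia and 0.775 in wild-normoxia (log2 ratio -3.00, SE 0.53). Barx1 (chr13:48758367-48761876), a homeobox factor of the stomach mesenchyme, had 60.8, 182 and 28.0 (-1.57, SE 0.30). Tbx4 (chr11:85699924-85729599), of lung mesenchyme and hindlimb, had 48.4, 116 and 32.6 (-1.25, SE 0.33). In these 3 genes the order was mutant-normoxia, wild-hypoxia, wild-normoxia. Of 33 listed genes 21 passed the minimum, with a median of -0.41. Called were 5 of these, all higher in mutant-normoxia (23.8%, beside 0.459% of all compared genes). Nkx2-1, Tbx4 and Sox2 passed the minimum through mutant-normoxia alone. The 12 genes under the minimum were split, with 6 higher in wild-hypoxia and 6 in mutant-normoxia. Foxf1, a forkhead factor of gut and lung mesenchyme, was called at 113 and 304 fragments with a model SE of 6.74, which leaves its ratio undetermined.

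Epcam, Cdh1 and Wnt7b of the same list were under 2-fold. Epcam, an adhesion protein of epithelia, had 66.6 fragments in wild-hypoxia and 131 in mutant-normoxia (-0.97, SE 0.30), and Cdh1, E-cadherin, had 126 and 176 (-0.48, SE 0.26). Wnt7b, a ligand of the lung epithelium, had 234 and 310 fragments beside 77.2 in wild-normoxia. The lung markers Sftpc and Cldn18 were under the minimum, at 0.964 and 3.52 fragments in wild-hypoxia and 2.12 and 20.1 in mutant-normoxia, and Pdx1 of the pancreas was at 0 in mutant-normoxia. Over the 33 members the sums were 10218, 11155 and 9855 fragments in wild-hypoxia, mutant-normoxia and wild-normoxia. With at least 200 fragments in one group the median of this list was -0.03. The part of foregut tissue in these ratios was not tested.

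Hox genes specify position along the body axis, and of those that passed the minimum only genes of the HoxB cluster on chromosome 11 were called. Genes under the minimum, from any cluster, were not eligible to be called. Hoxb6 (chr11:96153790-96162883) had 12.5 fragments in wild-hypoxia, 52.2 in mutant-normoxia and 15.8 in wild-normoxia (log2 ratio -1.98, SE 0.59). Hoxb9 (chr11:96132771-96137909) had 17.8, 57.3 and 14.1 (-1.63, SE 0.42). Hoxb5 and Hoxb8 were at -1.44 (SE 0.41) and -1.34 (SE 0.40). The anterior genes of the same cluster were nearer to equal, with Hoxb2 at 137 and 177 fragments, Hoxb3 at 205 and 261, and Hoxb4 at 114 and 127. Of 38 Hox genes with an entry 17 passed the minimum, and their median was -0.35. A ratio below 1 was found in 16 of the 17, beside 54.3% of all compared genes. Called were 4 (23.5%, beside 0.459% of all compared genes), and each of these passed the minimum through mutant-normoxia alone. With at least 10 fragments in one group the median of the list was -0.72. Of the 21 under the minimum, 19 were higher in mutant-normoxia; Hoxd13, the most posterior gene of its cluster, had 3.36 and 27.4 fragments and Hoxa13 had 1.81 and 14.0. Neighbouring Hox genes overlap, and a counting by strand is not given in the sources used here, so their reads can be shared.

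The called gene with the most fragments was Tnnt3 (chr7:149684741-149701914), the fast skeletal troponin T, with 633 fragments in wild-hypoxia, 1378 in mutant-normoxia and 219 in wild-normoxia (log2 ratio -1.12, SE 0.52). Other genes of skeletal muscle did not follow it. Tnni2, fast skeletal troponin I, had 1138 and 1234 fragments, Ckm had 1279 and 1405, and Myog, the factor of differentiating myoblasts, had 111 and 104. The median of the 15 compared genes of that list was -0.03, with 1 of 15 called. Chrng, the gamma subunit of the embryonic acetylcholine receptor, lay on the other side at 57.8 and 31.5 fragments (0.86, SE 0.37).

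The 10 genes higher in wild-hypoxia shared no evident group. Chga (chr12:103793179-103803237), chromogranin A of neuroendocrine secretory granules, stood first with 73.0 fragments in wild-hypoxia, 12.3 in mutant-normoxia and 9.31 in wild-normoxia (log2 ratio 2.48, SE 0.44). Its relative Chgb, listed under the minimum, had 18.8, 21.4 and 19.3. Lyz2 (chr10:116714390-116719377), lysozyme of macrophages, had 405 fragments in wild-hypoxia, 148 in mutant-normoxia and 504 in wild-normoxia (1.44, SE 0.22). Here mutant-normoxia stood apart as the low group. Of other macrophage genes, C1qa had 110 and 111 fragments, C1qb 198 and 199, and Lyve1 265 and 256, and the median of the 16 compared macrophage genes was -0.03 with Lyz2 as the only call. Lyz1, its near-identical neighbour, lay under the minimum with 43.0 fragments in wild-hypoxia, 16.6 in mutant-normoxia and 73.2 in wild-normoxia. The counts of both are uncertain with reads of this length, which can be shared between them.

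Rps3a1, a protein of the small ribosomal subunit, had 213 fragments in wild-hypoxia, 65.7 in mutant-normoxia and 74.5 in wild-normoxia (1.68, SE 0.29). The gene has many processed copies in the genome to which its reads can be assigned, and it was the only call among the 62 compared ribosomal protein genes, whose median was 0.02. Rec8, a cohesin subunit of meiosis, had 162, 66.4 and 151 fragments in wild-hypoxia, mutant-normoxia and wild-normoxia (1.27, SE 0.29). Ankrd63 had 86.4, 33.8 and 134 (1.33, SE 0.35), and Slc6a17, a vesicular transporter of neutral amino acids in neurons, had 221, 103 and 165 (1.10, SE 0.26). In Rec8, Ankrd63 and Slc6a17 mutant-normoxia was again the low group. Galnt2 was called with a model SE of 4.87, and the other 3 have no symbol.

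Set against the reference level, wild-normoxia lay between the groups in 39 of the 62 genes higher in mutant-normoxia, below both in 12 and above both in 11. Of the 10 genes higher in wild-hypoxia, it lay between in 6, below both in 2 and above both in 2. These positions are a description of group values without a spread between samples.

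**Figure D2:**
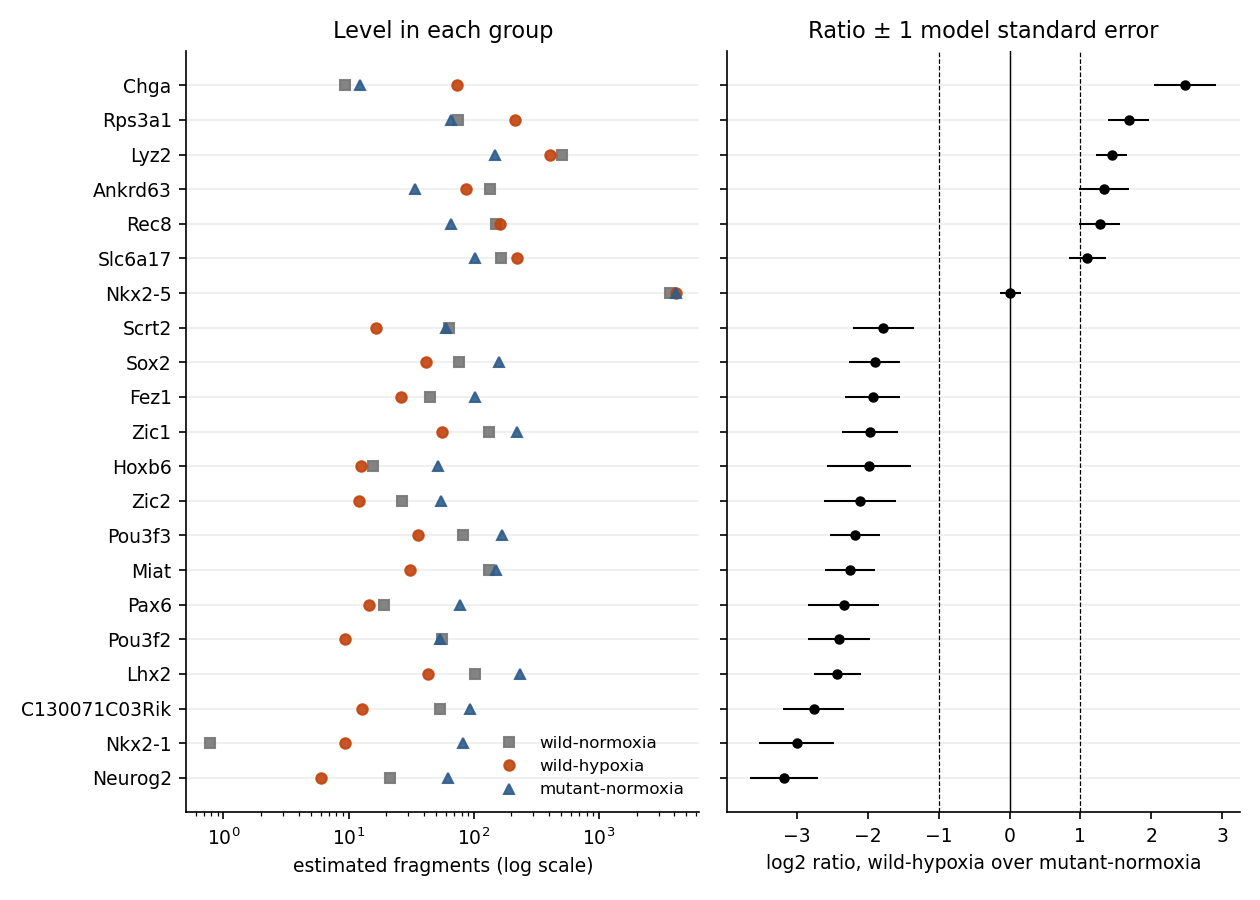
Left, estimated fragments (log scale) of Nkx2-5 and of genes over 2-fold and over 3 model SE that the naming rule chose, as wild-normoxia (squares), wild-hypoxia (circles) and mutant-normoxia (triangles). Right, their log2 ratio of wild-hypoxia over mutant-normoxia with bars of 1 model SE and dashed lines at 2-fold; the ratios run from -3.18 for Neurog2 to 2.48 for Chga, with Nkx2-5 at 0.01.

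A further 32 genes higher in mutant-normoxia and 6 higher in wild-hypoxia were over 3 model SE without reaching 2-fold. Several are nuclear RNAs or genes of RNA processing. Malat1, a noncoding RNA of nuclear speckles, had 3832 fragments in wild-hypoxia, 6773 in mutant-normoxia and 5284 in wild-normoxia (log2 ratio -0.82, SE 0.18). Meg3, an imprinted noncoding RNA, had 1918, 3049 and 3757 (-0.67, SE 0.19). Ccnl2, a cyclin linked to splicing, had 1782, 2598 and 3152 (-0.54, SE 0.17). Wsb1, which is of neither kind, had 2279, 3195 and 3690 (-0.49, SE 0.16). For Meg3, Ccnl2 and Wsb1 the reference level was above both groups, so that wild-hypoxia was the lowest of the 3.

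All 37 genes listed as splicing regulators and nuclear RNAs passed the minimum, and all 37 had a ratio below 1. This list was chosen with earlier results of these data known. It includes Wsb1, Meg3, Ogt, Clk1, Ccnl2 and Rbm39, which the paper reports as lower in wild-hypoxia than in wild-normoxia. Of these, Wsb1 and Ogt are of neither kind. Their median log2 ratio was -0.31, with 0 over 2-fold and 6 over 3 model SE, and the smallest difference was -0.08. The list's sum was 144190 fragments in wild-hypoxia, 174602 in mutant-normoxia and 182997 in wild-normoxia. Of the genes outside the lists with the same direction, named after their values were seen, Mir17hg, the host of the miR-17 cluster, had 140, 256 and 345 fragments in wild-hypoxia, mutant-normoxia and wild-normoxia. Mir100hg, another microRNA host, had 363, 692 and 748, and Firre, a nuclear noncoding RNA of the X chromosome, had 667, 980 and 1344. In each of these 3 the order was again wild-hypoxia, mutant-normoxia, wild-normoxia from low to high.

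Immediate early genes, which respond within minutes to growth signals, included 4 of 28 over 3 model SE, all higher in mutant-normoxia, and 0 over 2-fold. Fos had 158 fragments in wild-hypoxia, 288 in mutant-normoxia and 150 in wild-normoxia (-0.86, SE 0.25). Egr1 had 807, 1352 and 903 (-0.74, SE 0.18). The matricellular genes Ccn2 and Ccn1, targets of YAP and serum response factor, had log2 ratios of -0.58 (SE 0.16) and -0.50 (SE 0.17). Not all members shared this: Jun had 2383 and 2432 fragments, Ier2 had 1020 and 969, and Jund had 5036 and 4491. The median of the 28 was -0.12.

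On the wild-hypoxia side Col2a1, the fibrillar collagen of cartilage and valve primordia, had 1949 fragments, against 1160 in mutant-normoxia and 2732 in wild-normoxia (log2 ratio 0.75, SE 0.16). It was the only member over 3 model SE among 31 compared genes of the cushion mesenchyme and matrix, whose median was -0.05. The other 5, named after their values were seen, were Igfbpl1 (726 and 407 fragments), Tnnt1 (2632 and 1659), Slitrk5 (876 and 548), Lrrc10 (992 and 698) and Spock2 (296 and 184). Tnnt1 is slow skeletal troponin T, which the embryonic heart also expresses, and Lrrc10 a heart-restricted protein of the sarcomere. In all 5, as in Col2a1, wild-normoxia was the highest group, with 950, 3134, 1303, 1081 and 316 fragments, and mutant-normoxia the lowest.

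Targets of HIF and glycolytic genes were, as a list, not higher in the hypoxic hearts than in the mutant hearts. Of 39 listed genes 36 passed the minimum; 29 had a ratio below 1, 7 had a ratio above 1, 0 were over 2-fold, and the median log2 ratio was -0.11. Vegfa, the endothelial growth factor, had 2686 fragments in wild-hypoxia, 3651 in mutant-normoxia and 3945 in wild-normoxia (-0.44, SE 0.17). Eno1, a glycolytic enolase, had 1158, 1601 and 1240 (-0.47, SE 0.16). Pfkfb3 and Hk2, which raise glycolytic flux, were at -0.30 (SE 0.16) and -0.23 (SE 0.16). The glucose transporter Slc2a1 had 9357 and 9992 fragments, Ldha had 20811 and 20547, Pdk1 had 4772 and 4744, and the oxygen sensor Egln1 had 3368 and 3542. No member lay over 3 model SE.

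Endothelial and endocardial genes leaned the other way by small amounts. Of 29 genes, all compared, 27 had a ratio above 1, with a median of 0.15 and 0 over 2-fold or over 3 model SE. Sox18, a factor of vascular endothelium, had 618 fragments in wild-hypoxia and 491 in mutant-normoxia (0.33, SE 0.17). Nos3, the endothelial nitric oxide synthase, had 1707 and 1391 (0.30, SE 0.15), and the receptor Tie1 had 4317 and 3606 (0.26, SE 0.15). Cdh5, VE-cadherin, had 7338 and 6550 (0.16, SE 0.16). Kdr and Flt1, the receptors of Vegfa, had 3072 and 2984 and 1731 and 1782 fragments. The list's sums were 61534 fragments in wild-hypoxia, 55576 in mutant-normoxia and 57300 in wild-normoxia.

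Genes of red blood cells were slightly higher in wild-hypoxia than in mutant-normoxia, and both groups lay above the reference level. All 5 compared haemoglobin genes had a ratio above 1, with a median of 0.32. Hbb-b1, an adult beta globin, had 52680 fragments in wild-hypoxia, 38400 in mutant-normoxia and 12219 in wild-normoxia (0.46, SE 0.40), and the embryonic Hbb-bh1 had 48086, 39700 and 17815 (0.28, SE 0.37). Globin genes share near-identical stretches, so their counts are uncertain. Alas2, which starts haem synthesis in erythroid cells, had 9537, 7489 and 2743 (0.35, SE 0.22). Of 38 compared genes of the red cell membrane and maturation, 29 had a ratio above 1 and the median was 0.09. None of these genes was over 2-fold or over 3 model SE. The sums over this list were 87522 fragments in wild-hypoxia, 81542 in mutant-normoxia and 48664 in wild-normoxia.

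The genes that make the heart were nearly level between the groups. Of 32 compared cardiac transcription factors 0 were over 2-fold or over 3 model SE, and the median was 0.01. Gata4 had 7384 fragments in wild-hypoxia and 7218 in mutant-normoxia, Tbx5 had 2366 and 2449, Mef2c 2575 and 2800, and Hand1 870 and 765. The member furthest from 0 in model SE was Hopx, a homeodomain protein downstream of Nkx2-5, with 2870 fragments, 2214 and, in wild-normoxia, 3314 (0.37, SE 0.15). Isl1, of the second heart field, had 112 and 158 (-0.49, SE 0.26).

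Among 30 chamber genes and Nkx2-5 targets the ratios ran from -0.40 to 0.37 with a median of -0.07. Nppb, the B-type natriuretic peptide, had 1724 fragments in wild-hypoxia and 2266 in mutant-normoxia (-0.39, SE 0.15). Gja1, connexin 43, had 9151 and 11247 (-0.30, SE 0.17), whereas Gja5, connexin 40, had 6252 and 5984 (0.06, SE 0.17). The potassium channel subunit Kcne1 had 977 and 835 (0.23, SE 0.16). Neither direction held across the targets.

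Of the 31 sarcomere genes 0 were over 2-fold, and their median was -0.04. Ttn, titin, had 20618 fragments in wild-hypoxia, 32547 in mutant-normoxia and 28607 in wild-normoxia (-0.66, SE 0.28). Its transcript is very long, and the part of length in its ratio was not tested. Some other members had close values, as for Tnni3 (11995 and 11989), Mybpc3 (26042 and 26322) and Tpm1 (66086 and 65649). Others lay further out on either side, as for Myl6 at 0.25 (SE 0.17) and Tpm2 at -0.22 (SE 0.16). In the 30 genes of trabeculation and neuregulin signalling the median was 0.01 and the ratios ran from -0.18 to 0.29. Tgfb1, a growth factor, was at 0.29 (SE 0.16), Hey1, a Notch target, at 0.25 (SE 0.17) and Bmp10, the trabecular growth factor, at -0.18 (SE 0.15).

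The other lists had medians between -0.16 and 0.13. Cell cycle and replication genes had a median of -0.03 over 35 genes, heat shock and chaperone genes -0.01 over 26, oxidative stress genes 0.07 over 26, integrated stress and p53 genes 0.04 over 25, haem synthesis and iron genes 0.05 over 25, and the 54 nuclear-encoded genes of the respiratory chain 0.05. Platelet genes had a median of 0.13 over 17, epicardial genes -0.16 over 19, imprinted genes -0.06 over 18, interferon-induced genes 0.01 over 11, and genes of the second heart field and outflow tract -0.10 over 20. Of these lists only the second heart field list held a called gene, Foxf1. Basal keratinocyte genes had a median of -0.06 over 19 with 0 called, although Krt5 had 950 fragments in wild-hypoxia, 675 in mutant-normoxia and 113 in wild-normoxia. Liver genes had a median of -0.06 over 14; Afp, alpha-fetoprotein, had 570, 762 and 2164. The 5 compared mitochondrially encoded transcripts had a median of -0.01.

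**Figure D3:**
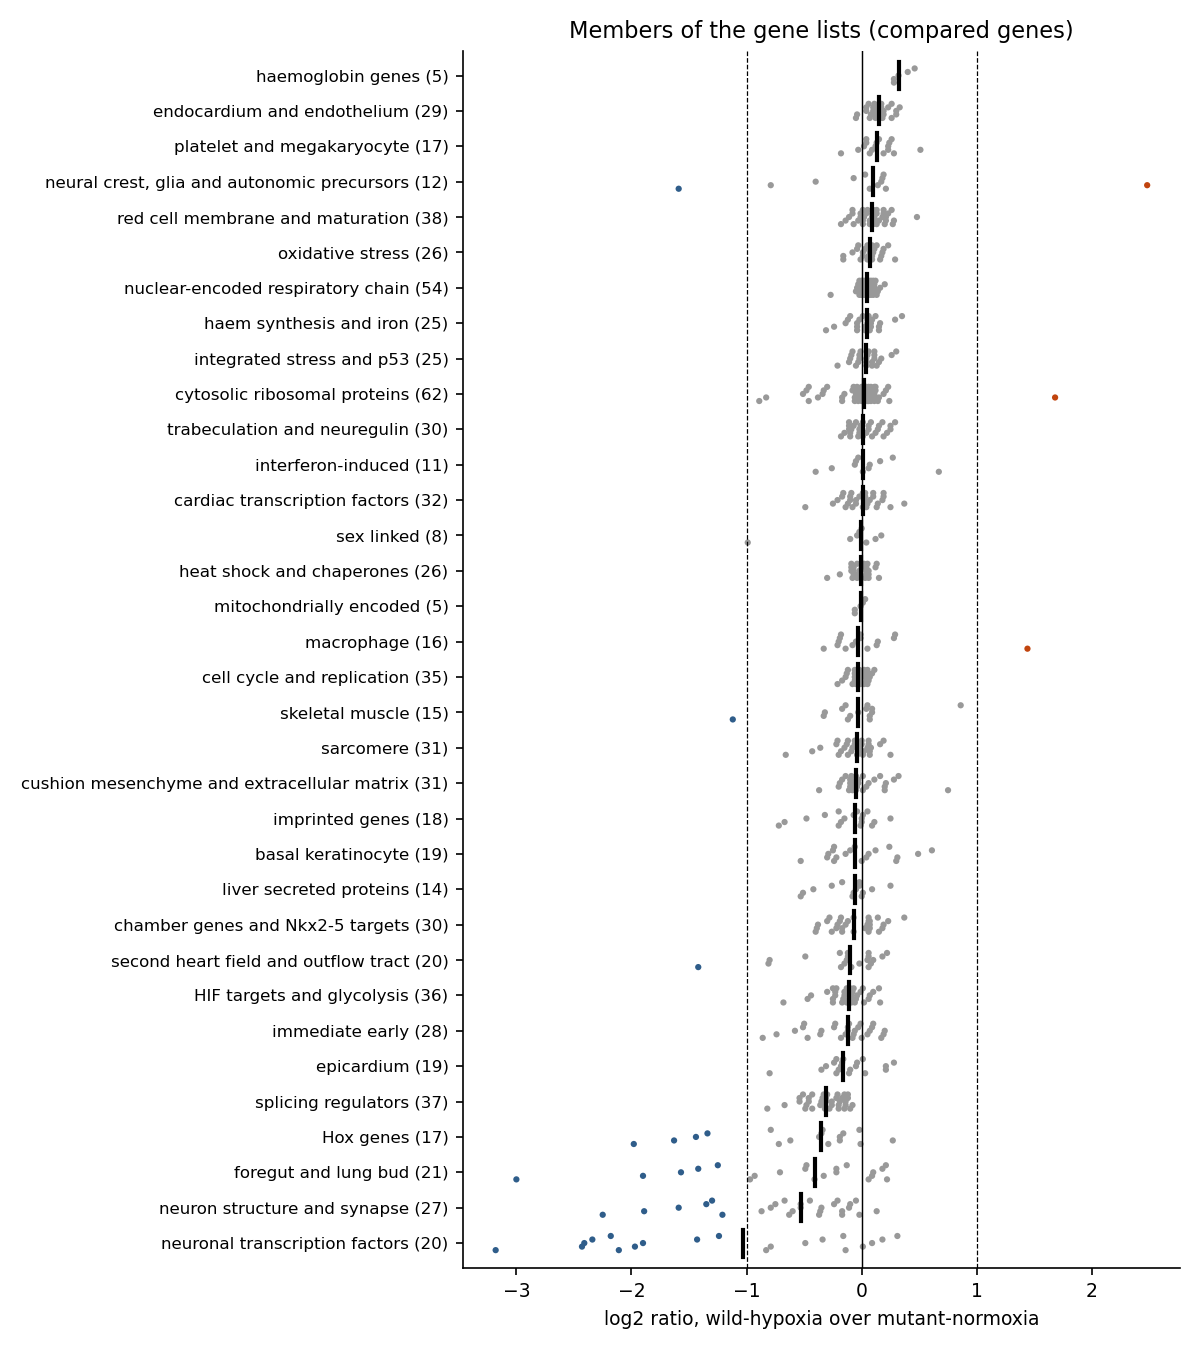
Log2 ratio of wild-hypoxia over mutant-normoxia for every compared member of the 34 gene lists (points; coloured beyond 2-fold, dashed lines), with the median of each list as a bar and the number compared in brackets. The neuronal, foregut and Hox lists reach far to the left, whereas the cardiac, stress and metabolic lists lie close around 0 and the splicing list lies wholly below 0.

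The ratio also followed transcript length. Across the 10176 genes averaging 200 fragments or more and with a length in the NCBIM37 annotation, Spearman's rho between the log2 ratio and the longest transcript was -0.40; these points are genes of the same 2 group values and not replicates. In the tenth of genes with the shortest transcripts, up to 1304 bases, the median was 0.06 and 74.5% were higher in wild-hypoxia. In the tenth with the longest, from 6729 bases, the median was -0.10 and 14.2% were higher in wild-hypoxia. After this trend was taken out the medians were -0.25 for splicing regulators, 0.16 for endothelium, -0.10 for HIF targets, 0.09 for red cell genes and 0.00 for the respiratory chain. Among genes with an annotated length 56 were over 2-fold before the trend was taken out and 55 after. The part of RNA quality or library preparation in the trend was not tested.

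**Figure D4:**
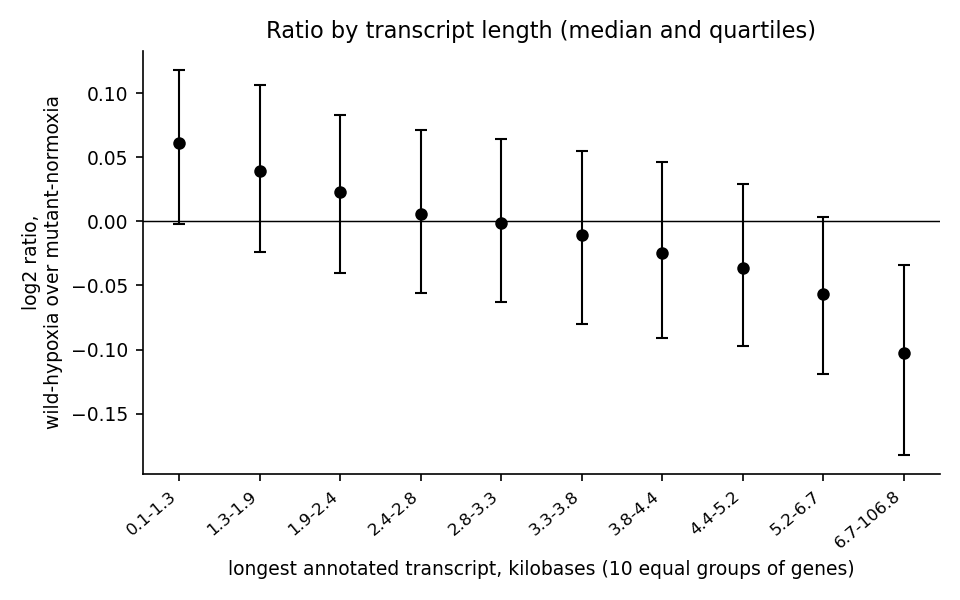
Log2 ratio of wild-hypoxia over mutant-normoxia in 10 equal groups of genes by the length of the longest annotated transcript (kilobases), for genes averaging 200 fragments or more; points are medians and bars the quartiles. The median falls from 0.06 in the shortest group to -0.10 in the longest.

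Of 10 listed genes of the sex chromosomes 8 were compared, with 0 over 2-fold and a median of -0.01. Xist, the noncoding RNA that silences an X chromosome in female cells, had 3016 fragments in wild-hypoxia, 6001 in mutant-normoxia and 12198 in wild-normoxia (log2 ratio -0.99, SE 0.20). The Y-linked gene Uty had 437, 389 and 289 fragments in the same order, and Kdm5d, also Y-linked, had 395, 362 and 277. Xist thus ran opposite to the Y-linked pair. The part of embryonic sex in the other ratios was not tested.

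Promoters of the genes at the extremes are shown from RefSeq (GRCm38.p6), 250 bases before to 50 after the start, because one group carries a changed NK2 factor and the other was kept at low oxygen. The NK2 core AAGTG was searched on both strands, its other strand being CACTT, and matches are in capitals; the hypoxia response core ACGTG, which reads CACGT on the other strand, was searched in the same way. Nkx2-1 holds 2 matches of the NK2 core, and Neurog2 and Chga hold 0; none of the 3 holds the hypoxia core, so no matches overlap.
Neurog2, chr3:127632886-127633185, plus strand: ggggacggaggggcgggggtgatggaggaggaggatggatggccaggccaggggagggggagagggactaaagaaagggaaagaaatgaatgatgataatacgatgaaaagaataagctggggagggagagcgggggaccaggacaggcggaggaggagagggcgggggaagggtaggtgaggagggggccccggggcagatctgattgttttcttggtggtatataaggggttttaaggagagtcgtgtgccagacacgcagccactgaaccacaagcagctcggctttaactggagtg
Nkx2-1, chr12:56536859-56537158, minus strand: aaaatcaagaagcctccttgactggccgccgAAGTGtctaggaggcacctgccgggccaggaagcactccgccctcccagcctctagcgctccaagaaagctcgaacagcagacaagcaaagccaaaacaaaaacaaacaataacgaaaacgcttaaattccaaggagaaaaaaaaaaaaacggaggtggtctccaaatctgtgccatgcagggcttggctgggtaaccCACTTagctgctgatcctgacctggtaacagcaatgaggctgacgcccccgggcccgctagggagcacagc
Chga, chr12:102554691-102554990, plus strand: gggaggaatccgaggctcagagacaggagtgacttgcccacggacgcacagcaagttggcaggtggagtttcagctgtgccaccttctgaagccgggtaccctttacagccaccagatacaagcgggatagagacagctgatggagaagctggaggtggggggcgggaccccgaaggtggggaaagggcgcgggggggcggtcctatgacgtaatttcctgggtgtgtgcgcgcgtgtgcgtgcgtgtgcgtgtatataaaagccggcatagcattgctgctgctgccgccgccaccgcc
Of the 51 named genes higher in mutant-normoxia 38 matched the table by symbol, with 57 promoters, and AAGTG was in 21 of these (36.8%), beside 46.4% of all 32851 promoters of that length. It was in 2 of the 7 promoters (28.6%) of 6 genes higher in wild-hypoxia. ACGTG was in 19.3% of the former, 14.3% of the latter and 19.6% of all. A match is a description of the letters in the window and not of binding.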

How the data were processed

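RNA of 10 samples of E12.5 mouse hearts was sequenced, and the 6 samples of wild-hypoxia and mutant-normoxia entered the comparison; groups follow the submitters' labels. The authors selected poly-adenylated RNA, read it with single-end reads, mapped the reads with Bowtie2 and TopHat to the genome they name MM9, and quantified genes with Cufflinks; tool versions were not given in the sources used here. Analysed values are the estimated counts that the authors deposited, 1 per gene and group. Other columns per group were deposited beside them. They hold a variance from the authors' model in squared fragments, its uncertainty and dispersion parts, and a status of the estimate. No column holds a single sample (0 such columns), so depth per sample is unknown and the tests planned on samples could not be run. Counting error alone leaves out the spread between samples. The model standard error includes the dispersion part of the authors' variance, but a spread between these samples could not be computed.

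Log2 ratios were taken after a pseudocount of 1 for genes with status OK in both groups and at least 50 fragments in one. Model standard errors came from the delta method on the variances divided by 3; those under 0.05 were not used (3 genes: Ermard, Junb and Srp54b). Genes named are Nkx2-5, up to 15 per direction with the largest ratios among named genes over 2-fold and over 3 model standard errors (6 were available higher in wild-hypoxia), and up to 4 members of each of 34 gene lists furthest from 0 in model standard errors; some genes that this rule names are not reported here, and other list members are examples chosen after their values were seen. The members and lists were chosen with earlier results of these data known. Symbols came from a table of Ensembl identifiers, with older names matched through RefSeq synonyms, and for Pou3f2 and Miat from the study's tables; they cover 65.91% of the table. Gene coordinates are those of the NCBIM37 annotation by identifier, and sequences are from RefSeq (GRCm38.p6). Scripts used Python 3.11.15, pandas 2.3.3, NumPy 2.4.6 and SciPy 1.17.1, and were tested on simulated data.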

Additional observations from a re-analysis of the deposited data

How the results depend on the processing

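The number of genes over 2-fold depended on the minimum count. With at least 200 fragments in one group 12 genes were over 2-fold, 5 higher in wild-hypoxia and 7 higher in mutant-normoxia. With a mean of at least 50 it was 47, of which 39 were higher in mutant-normoxia. With at least 10 fragments it was 324 (39 higher in wild-hypoxia and 285 higher in mutant-normoxia), and with no filter 1320 (294 and 1026). With each variance used whole instead of divided by 3, 14 genes were over 3 model standard errors, 3 higher in wild-hypoxia and 11 in mutant-normoxia. The median log2 ratio of neuronal transcription factors reversed to 0.01 with at least 200 fragments, since most members were then left out. Other pseudocounts (10 and 0.1) and scaling to equal totals or to a median of 0 kept each count of genes over 2-fold within 1.5 times. So did taking out the length trend (which leaves out genes with no annotated length), leaving out those genes alone, and leaving out genes with a model standard error over 1. The last 3 were chosen after seeing the data. Of these settings, genes over 3 model standard errors were counted again only with scaling to a median of 0, giving 74 beside 83. A pseudocount of 10 drew 7 named genes closer to 0, among them Neurog2 to -2.18 and Chga to 1.90. The median changed sign under some alternative in 8 of 34 lists. No paired analysis was possible because the table holds 1 value per group, and for the same reason no replicate could be left out in turn. Below about 100 fragments the counts limit what can be said of a single gene.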
